A study of Mus musculus with 4 samples.

Results

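The flavin monooxygenase genes Fmo1, Fmo2, Fmo4 and Fmo5 were taken by name from a table of 39179 mouse genes, and they are 4 of those genes. They were chosen because Fmo2 stood out when fibroblasts with the germ line factors Stella, Oct4 and Nanos2 were set against control fibroblasts, so their values in that comparison are a description and carry no test. The study sequenced the messenger RNA of BALB/c mouse embryonic fibroblasts (MEFs), cells of the connective tissue that are put into culture from embryos. Cells at passage 2 received either a control lentivirus for green fluorescent protein (libraries GFP I and GFP II) or a lentivirus for Stella, Oct4 and Nanos2 (libraries SON I and SON II). In both groups puromycin was added 72 h after infection at 2 µg/ml and kept for 4 days, and 21 days of growth without the drug followed. The virus and the culture that received it coincide with the group, so their effects cannot be told apart from those of the delivered factors, and no label states whether a group's libraries were made from different cultures or embryos. Where p-values are given they thus measure the spread between these libraries, which may be technical. Between 14680865 and 37097571 reads fell in genes, more in the GFP control than in SON. The delivered genes were read as labelled: Pou5f1 (Oct4), Dppa3 (Stella) and Nanos2 had 201 to 329 reads in each SON library and at most 1 in each GFP control library.

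Flavin monooxygenases are enzymes of the endoplasmic reticulum membrane. They hold the flavin FAD, take electrons from NADPH and place 1 oxygen atom of O2 on nitrogen or sulfur atoms of drugs, toxins and small metabolites. They work beside the cytochrome P450 enzymes in the first phase of xenobiotic metabolism. In mouse and most other mammals Fmo2 is known as the main form of the lung, and Fmo1 as a main form of the liver and kidney that also oxidises hypotaurine to taurine. Human FMO5 inserts oxygen next to carbonyl groups, a Baeyer-Villiger type of reaction, and little is known of the substrates of Fmo4.

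Fmo4, Fmo1 and Fmo2 lie side by side on chromosome 1, on the minus strand (GRCm38). Fmo4 (ENSMUSG00000026692) spans 162793188 to 162813972, Fmo1 (ENSMUSG00000040181) 162829561 to 162866610, and Fmo2 (ENSMUSG00000040170) 162874317 to 162898726. Fmo6, which is no member, follows at 162916551 to 162937515. Fmo5 (ENSMUSG00000028088) stands apart on chromosome 3, from 97628804 to 97655282 on the plus strand. No other GENCODE gene overlapped the span of a member, which matters because the library kit keeps no strand. The longest open reading frames measured 1599 bp in Fmo1, 1608 bp in Fmo2, 1602 bp in Fmo5 and 1683 bp in Fmo4. That of Fmo2 shared 62% of its aligned bases with Fmo1, 63% with Fmo5 and 63.6% with Fmo4. At the length of a read the genes could be told apart: no stretch of 50 bases of an annotated Fmo2 or Fmo4 transcript occurred in another gene. For Fmo5 0.781% of such stretches did, and for Fmo1 11.9%, shared with 26 genes of which 0 are flavin monooxygenases.

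The promoter windows that RefSeq gives for Fmo2, Fmo5 and Fmo4 (GRCm38.p6) are shown because these genes cover the range from the widest to the narrowest difference described below, and because Oct4, a delivered factor, binds DNA at an octamer. Each window holds 300 bases around the annotated start of transcription, 5′ to 3′ on the strand of the gene, and capitals mark a motif match. The windows are chr1:162898709-162899008 for Fmo2, chr3:97628769-97629068 for Fmo5 and chr1:162812500-162812799 for Fmo4. Their starts are those of RefSeq and differ from the GENCODE spans given above. The Fmo4 window lies wholly inside the span of Fmo4, and most of the Fmo5 window lies inside that of Fmo5.
Fmo2: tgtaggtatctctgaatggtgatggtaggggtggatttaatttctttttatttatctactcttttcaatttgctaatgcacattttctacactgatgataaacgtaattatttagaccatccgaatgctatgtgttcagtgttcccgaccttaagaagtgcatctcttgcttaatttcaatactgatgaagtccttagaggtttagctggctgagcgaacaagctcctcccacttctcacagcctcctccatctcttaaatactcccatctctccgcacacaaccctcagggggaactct
Fmo5: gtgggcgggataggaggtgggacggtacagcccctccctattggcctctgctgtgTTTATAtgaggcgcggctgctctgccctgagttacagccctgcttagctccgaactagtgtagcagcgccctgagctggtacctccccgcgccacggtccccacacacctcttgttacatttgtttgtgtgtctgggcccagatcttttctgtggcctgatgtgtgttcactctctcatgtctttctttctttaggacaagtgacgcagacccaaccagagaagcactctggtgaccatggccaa
Fmo4: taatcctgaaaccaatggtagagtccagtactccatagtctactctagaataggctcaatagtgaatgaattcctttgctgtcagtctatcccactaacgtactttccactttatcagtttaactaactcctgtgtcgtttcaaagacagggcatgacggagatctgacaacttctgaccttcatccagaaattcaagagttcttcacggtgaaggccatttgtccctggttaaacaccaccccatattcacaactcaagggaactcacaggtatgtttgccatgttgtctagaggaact
Both strands were searched for the octamer ATGCAAAT, the TATA box TATAAA, the antioxidant response element core TGACNNNGC and the AhR response element core GCGTG, none of which contains another. The Fmo5 window held 1 match, a TATA box on the opposite strand at position -195 from the RefSeq start, and the other 2 windows held 0. A further RefSeq window of Fmo2, chr1:162898444-162898743, also held 0. Among all 32851 mouse windows of that length 1.74% held the octamer, 13.6% the TATA box, 12.4% the antioxidant core and 32.4% the AhR core. Motif letters are missing from most windows, so these counts describe the sequences only. The window of Fmo2 had a GC content of 41.3% and that of Fmo4 42.7%, against 56% in Fmo5 and a median of 52.7% over all windows.

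Fmo2 carried most of the flavin monooxygenase reads of the control fibroblasts and was far lower in SON. Its level was 962 normalized counts in GFP I and 763 in GFP II, against 36.8 in SON I and 47.0 in SON II, where a normalized count is a read count divided by the size factor of its library. These values stood on 1152, 1283, 27 and 32 reads. Both SON libraries lay far below both GFP control libraries. The group means were 862 ± 141 and 41.9 ± 7.21 (SD, n = 2 each), a level 20.6-fold lower in SON. On the scale of log2(normalized count + 1) the SON minus GFP control difference was -4.33 with a standard error of 0.26. The pooled reads gave a ratio of GFP control to SON of 20.3, with an exact 95% interval of 15.7 to 26.7 that covers counting error only. In bulk RNA, fewer cells that make Fmo2 and less Fmo2 RNA per cell cannot be told apart.

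Set against all 15283 genes with enough reads to be tested, the Fmo2 difference was second from the bottom. Among the 11246 genes with a mean of at least 100 normalized counts it was the lowest, and 1 gene, Fmo2 itself, lay at or below its value. That rank is how the gene came to be chosen and is given as a description. Within the GFP control the level of Fmo2 in library I was 1.26 times that in library II, and 23.5% of the genes with a mean of at least 100 differed as much or more between those libraries in either direction. The authors' deposited table gives a log2 difference of -4.09 (SE 0.32) for Fmo2 and calls it lower.

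**Figure D1:**
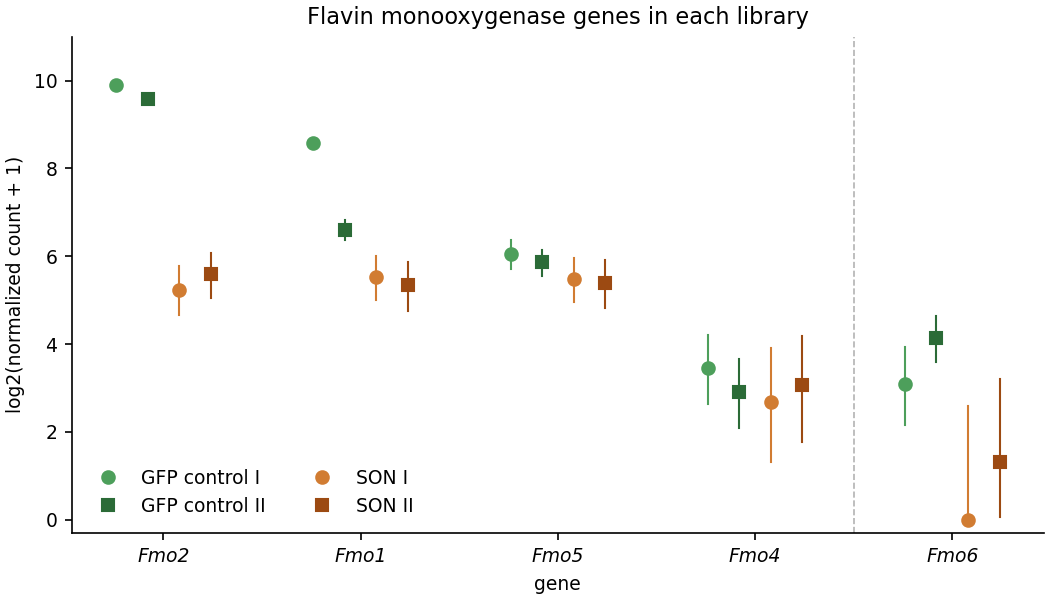
Level of the flavin monooxygenase genes in each library, as log2(normalized count + 1). Points are libraries, bars are two-sided exact 95% counting intervals, and the dashed line parts the 4 members on the left from Fmo6. Fmo2 lies at 962 and 763 in the GFP control, against 36.8 and 47.0 in SON, and Fmo1 is spread in the GFP control. Fmo5 differs little between the groups, and the groups of Fmo4, which has few reads, overlap.

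Fmo1 was also lower in SON, but its GFP control libraries disagreed. It measured 379 normalized counts in GFP I and 95.7 in GFP II, against 45.0 in SON I and 39.7 in SON II, from 454, 161, 33 and 27 reads. Both SON libraries again lay below both controls, with GFP II much closer to SON than GFP I was. The means were 237 ± 200.5 and 42.3 ± 3.77, a 5.61-fold lower level, and the log2 difference was -2.15 with a standard error of 0.67. Without GFP I the difference was -1.16, and without GFP II it was -3.14. The pooled reads gave a ratio of 5.03 (exact 95% interval 3.86 to 6.68). That interval covers counting error only and leaves out the gap between GFP I and GFP II. The level of Fmo1 in GFP I was 3.96 times that in GFP II, and only 58 of 11246 genes with a mean of at least 100, or 0.516%, differed by as much in either direction. In the plot of the members by library this shows as the wide gap between the green points of Fmo1. The authors' deposited table calls Fmo1 lower, with a log2 difference of -2.01 (SE 0.52).

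Fmo5 differed little. It measured 65.2 normalized counts in GFP I and 57.1 in GFP II, against 43.6 in SON I and 41.1 in SON II, from 78, 96, 32 and 28 reads. The groups did not overlap, and the 4 libraries lay close together. The means were 61.1 ± 5.72 and 42.4 ± 1.77, a level 1.44-fold lower in SON, with a log2 difference of -0.52 and a standard error of 0.31. The pooled reads gave a ratio of 1.42 (exact 95% interval 1.06 to 1.94, for counting error only). The authors' deposited table gives -0.46 (SE 0.43) and does not call Fmo5.

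Fmo4 was close to the limit of detection in every library. Its 12, 11, 4 and 5 reads correspond to 10.02, 6.54, 5.45 and 7.34 normalized counts in GFP I, GFP II, SON I and SON II, where 3 reads, taken as the limit that a count of 0 allows, equal 2.51, 1.78, 4.09 and 4.41. SON II lay between the controls, so the groups overlapped. The means were 8.28 ± 2.46 and 6.40 ± 1.34, and the log2 difference of -0.31 ranged from -0.59 to -0.04 when 1 library was left out. The pooled ratio of 1.26 had an exact 95% interval of 0.559 to 3.08, so no difference in either direction was resolved within that range. Fmo4 did not pass the filter on low counts, and the other 3 members did.

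Of the 3 members that passed the filter, all 3 had both SON libraries below both GFP control libraries, an arrangement found in 23.7% of all tested genes. Of the same 3, the authors' deposited table calls 2 lower, Fmo2 and Fmo1, at an adjusted p under 0.05, as it does for 2.59% of the genes with an adjusted p. The members were picked on this contrast, so nothing is read from these counts.

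**Figure D2:**
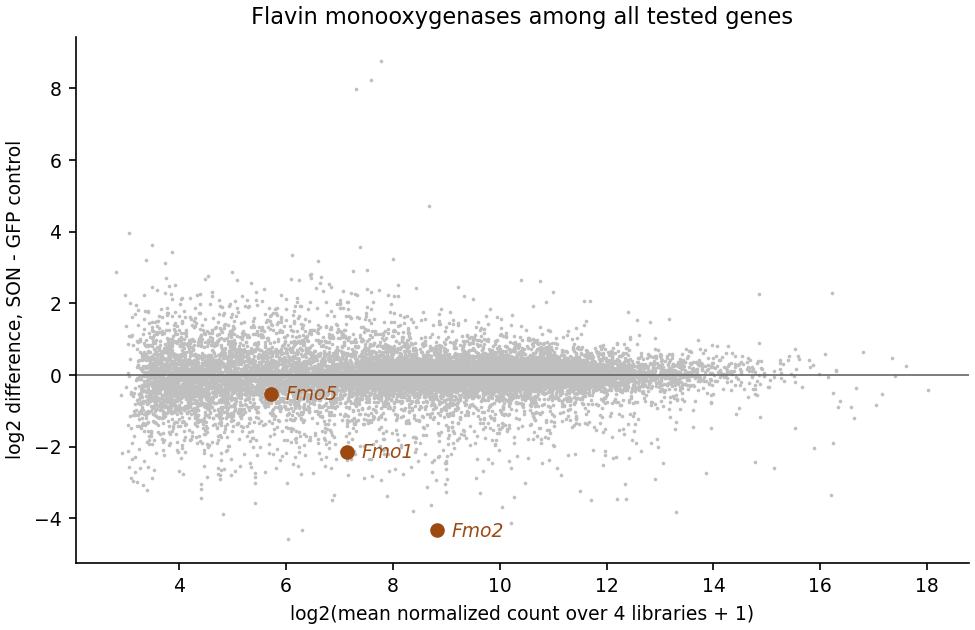
Log2 difference (SON minus GFP control) of each of the 15283 tested genes against the log2 of its mean normalized count over the 4 libraries plus 1. Grey points are genes, and the 3 members that passed the filter are labelled in brown. Fmo2 lies at -4.33, at the lower edge of the cloud for its mean level, and Fmo5 at -0.52 lies inside the cloud.

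Levels can be compared between genes only per length, and here the unit is RPKM, reads scaled to the length of the merged exons and to the reads in genes of the library. In the GFP control Fmo2 stood at 6.63 ± 0.661 RPKM, Fmo1 at 1.59 ± 1.27, Fmo5 at 0.466 ± 0.0136 and Fmo4 at 0.0960 ± 0.0226 (SD, n = 2). All neighbours in that order were separated, since the lowest library of each gene lay above the highest of the next. In SON the order was Fmo2 at 0.333 ± 0.0788 RPKM, Fmo5 at 0.330 ± 0.00804, Fmo1 at 0.297 ± 0.00686 and Fmo4 at 0.0770 ± 0.0210. Fmo2 ranged from 0.277 to 0.389 RPKM over the SON libraries, which spans both Fmo5 and Fmo1, so the order of these 3 genes in SON is not resolved. With the longest transcript as the length, Fmo1 came first in SON and Fmo2 second, and the GFP control order was as before. The wide gap between Fmo2 and the other members was seen in the control cells and not in SON.

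Among tested genes, the level of Fmo2 per length exceeded that of 60.9% and 56.2% of genes in GFP I and II, and that of 10.5% and 12.1% in SON I and II. Fmo1 lay at 37.5% and 18.0% in the GFP control, against 11.2% and 9.32% in SON. Fmo5 lay at 15.2% and 13.5% in the GFP control, against 11.8% and 10.6% in SON, and Fmo4 did not pass 3.88% in any library. Fmo2 was thus a gene of middling level in the control and sat near the low end of tested genes in SON.

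The shares of the members among flavin monooxygenase reads differed between the groups as well. Fmo1, Fmo2, Fmo4, Fmo5, Fmo6, Fmo9 and the pseudogenes Gm4846 and Gm4847, 8 genes, together had 1706 reads in GFP I and 1585 in GFP II, and 97 and 96 in SON I and II. Fmo2 took 67.5% of them (Wilson 95% interval 65.3% to 69.7%, for counting error only) in GFP I and 80.9% (78.9% to 82.8%) in GFP II. Its share was 27.8% (19.9% to 37.5%) in SON I and 33.3% (24.7% to 43.2%) in SON II. Both control libraries lay above both SON libraries, and the intervals of the control libraries did not overlap each other either, so the libraries of a group differed by more than counting error. These shares come from the values on which Fmo2 was chosen. Fmo5 made up 4.57% and 6.06% of these reads in the GFP control, against 33.0% and 29.2% in SON, at a level that differed only 1.44-fold. The share of Fmo1 was 26.6% and 10.2% in the GFP control, against 34.0% and 28.1% in SON. In SON the 3 genes thus held similar shares.

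Some other genes of the family were read at low levels. Fmo6, which lies next to Fmo2 and is no member, had 9 and 28 reads in GFP I and II and 0 and 1 in SON I and II, a pooled ratio of 18.2 with an exact 95% interval of 3.07 to 737. Fmo9, Gm4846 and Gm4847, which lie further along chromosome 1, had at most 4 reads in any library.

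The genes around the cluster did not share the size of the Fmo2 difference. Of 28 genes of other families that start within 1 Mb of the members, 13 were tested, and their median log2 difference was -0.22 against -0.01 over all tested genes, and from -0.33 without SON II to -0.06 without SON I. Limma called 0 of the 13 over all genes (0.0523% of all genes were called). At an unadjusted p under 0.05, 0 of the 13 were higher and 3 lower, where 5.99% of all genes were higher and 6.57% lower, and the authors' deposited table and DESeq2 on the recovered reads call 0. Prrc2c, the first tested gene beyond Fmo4, measured 5893 ± 858 and 5750 ± 588 normalized counts in GFP control and SON (log2 -0.03, limma adjusted p = 0.964). Prrx1, a homeobox gene of mesenchyme on the other side of the cluster, measured 17620 ± 3197 and 12360 ± 2230 (log2 -0.51, limma adjusted p = 0.445). Around Fmo5, 18 of 37 genes were tested, with a median of 0.06 and 0 limma calls (unadjusted: 2 higher, 1 lower), while the authors' deposited table calls 0 and DESeq2 on the recovered reads called 1 higher, Pde4dip, a gene picked for that call. The Fmo5 neighbours Chd1l and Prkab2 had log2 differences of 0.26 and 0.39 (limma adjusted p = 0.797 and 0.713).

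**Figure D3:**
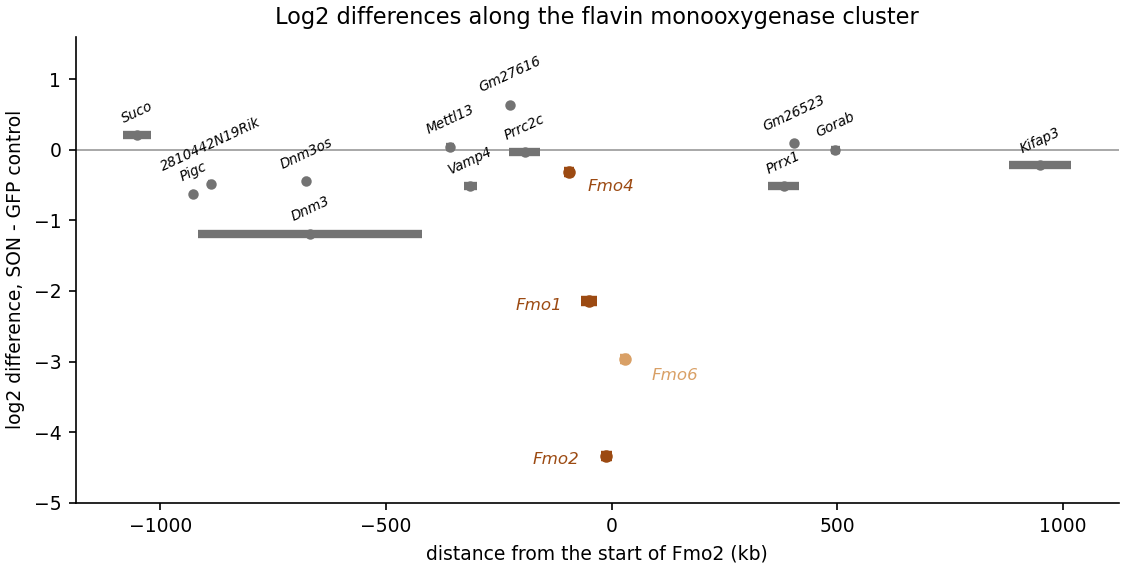
Log2 difference (SON minus GFP control) of genes along the chromosome 1 cluster against their distance in kb from the start of Fmo2. Bars span each gene and points mark its middle, with members in dark brown, Fmo6 in light brown and tested genes of other families in grey. Fmo2 at -4.33, Fmo6 and Fmo1 stand below all grey genes, of which the lowest is Dnm3 at -1.19, while Fmo4 at -0.31 lies among them; Fmo4 and Fmo6 did not pass the filter.

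The genes whose pattern over the 4 libraries was nearest to that of Fmo2 were looked up by Euclidean distance between log2(normalized count + 1) values after each gene's mean was subtracted, among 11245 genes with a mean of at least 100. The 6 nearest were Rarres2, which encodes the chemoattractant chemerin, the chemokine Ccl11, Ndufa4l2, a relative of a mitochondrial respiratory subunit, the acute-phase gene Saa3, the chemokine Cxcl3, and Mmp9, which encodes a gelatinase. Their distances ran from 1.01 to 1.16. Fmo2 was flatter within the GFP control than Rarres2, whose level was 3462 normalized counts in GFP I and 1052 in GFP II, against 88.6 and 131 in SON I and II. Cxcl3 measured 848 and 989 in the GFP control, against 85.9 and 106 in SON, with a log2 difference of -3.25, and it passed limma over all genes (limma adjusted p = 0.0356). The other 5 had log2 differences from -4.14 to -3.23 and limma adjusted p from 0.170 to 0.230, and the authors' deposited table calls all 6 lower. This likeness rests on 4 libraries and mainly on the step between the groups.

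**Figure D4:**
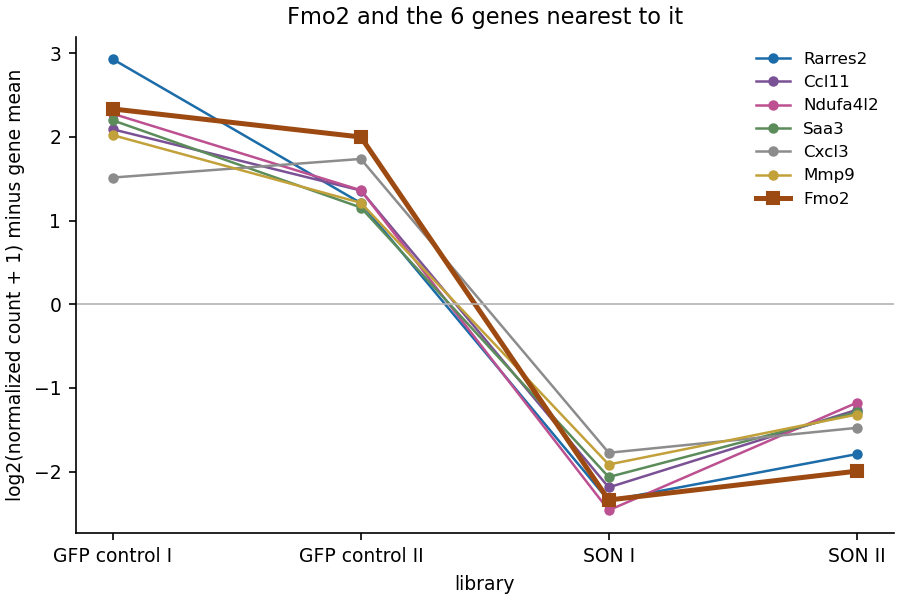
Pattern of Fmo2 and of the 6 genes nearest to it, as log2(normalized count + 1) minus the gene's mean, in the 4 libraries. Each line joins the libraries of 1 gene, with Fmo2 as the thick brown line. All 7 lines are high in both GFP control libraries and low in both SON libraries, and the GFP control libraries are closer together for Fmo2 than for Rarres2.

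The metabolic setting of the flavin monooxygenases was described with 10 gene lists, and the list of other flavin monooxygenases is covered above. Limma called 0 members of any list over all genes, edgeR with TMM or RLE factors and limma voom also called 0, and the counts at an unadjusted p are given below. These counts are to be read beside the 5.99% and 6.57% of all genes given above. Most list medians are smaller in size than their widest change when 1 library is left out, so the lowest and highest of those values stand beside each. The medians of the cytochrome P450 and glucocorticoid lists are larger than that change and stayed negative. The authors' deposited table calls 1.48% of genes higher and 2.59% lower. DESeq2 on the recovered reads, which called 1.67% of genes higher and 2.7% lower, made as many calls in each list as the authors' deposited table, but 0 in any list once GFP I was left out, where it made 54 calls over all genes.

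The cofactors of the enzymes showed no large difference. The 5 genes that take up riboflavin and make FAD had a median log2 difference of 0.10 (-0.11 without GFP I, 0.11 without GFP II), with 0 higher or lower at an unadjusted p and 0 calls in the authors' deposited table. Rfk, the riboflavin kinase, measured 1120 ± 78.4 and 1017 ± 65.5. The 14 genes that supply NADPH had a median of -0.07, or -0.16 without GFP I and -0.06 without GFP II (unadjusted: 1 higher, 1 lower), while the authors' deposited table calls 1 higher. That gene is Mthfd1, a folate enzyme, at 856 ± 160 and 1582 ± 140 (log2 0.90, limma adjusted p = 0.251, the authors' deposited DESeq2 adjusted p = 0.0282). Nadk, which makes NADP, measured 5479 ± 225 and 5444 ± 119.

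Of 43 cytochrome P450 enzymes and their electron donors, 31 were tested, with a median of -0.14, or -0.25 without SON II and -0.05 without SON I (unadjusted: 1 higher, 6 lower), while the authors' deposited table calls 2 lower. Cyp7b1, which hydroxylates oxysterols, measured 1244 and 487 normalized counts in GFP I and II and 158 and 163 in SON I and II. Cyp2f2, like Fmo2 known from the lung, measured 152 and 77.9 in the GFP control, against 12.3 and 13.2 in SON. Their log2 differences were -2.27 and -2.999 (limma adjusted p = 0.249 and 0.230, the authors' deposited DESeq2 adjusted p = 2.4e-05 and 2.88e-05). For both genes GFP I was the highest library, as it was for Fmo1 and Fmo2. Cyb5r3, the cytochrome b5 reductase and the most abundant gene of the list, measured 11000 ± 229 and 12900 ± 1130. The 32 tested genes of other phase I enzymes had a median of 0.11, or -0.16 without SON II and 0.33 without GFP II (1 higher and 2 lower unadjusted, 0 calls in the authors' deposited table). Ephx1, an epoxide hydrolase, measured 5059 ± 381 and 7729 ± 1048 (log2 0.61, limma adjusted p = 0.289).

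Conjugation enzymes of phase II, which act on oxidised products, had a median of -0.19 over 32 tested genes, or -0.62 without SON II and -0.08 without SON I (unadjusted: 1 higher, 7 lower), while the authors' deposited table calls 1 lower. This was Nnmt, which methylates nicotinamide, at 501 ± 43.3 and 216 ± 79.4 (log2 -1.26, limma adjusted p = 0.270, the authors' deposited DESeq2 adjusted p = 0.0205). Gsto1, a glutathione transferase and the most abundant gene of the list, measured 19280 ± 3628 and 13230 ± 647. The list of cysteamine, hypotaurine and taurine metabolism covers the route from cysteine through hypotaurine, a substrate of Fmo1, to taurine. It also holds Pank1, Pank2, Pank3, Ppcs, Ppcdc and Coasy of coenzyme A synthesis, and Cth, Cbs, Got1 and Got2. Its 16 tested genes thus reach beyond the route. Their median was 0.06, or -0.11 without SON I and 0.09 without GFP II (unadjusted: 1 higher, 2 lower). The authors' deposited table calls 2 of them lower and 1 higher. Cdo1, the dioxygenase that starts the route from cysteine, measured 2973 and 1591 in GFP I and II and 919 and 435 in SON I and II. Vnn1, which releases cysteamine, measured 786 ± 49.1 and 412 ± 0.344, and Slc6a6, the taurine transporter, 3228 ± 23.4 and 6202 ± 1877. The log2 differences were -1.78, -0.93 and 0.91 (limma adjusted p = 0.274, 0.230 and 0.274, the authors' deposited DESeq2 adjusted p = 0.00483, 0.00848 and 0.0376).

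Pathways that respond to xenobiotics or hormones gave 0 limma calls over all genes. The 24 tested genes of the NRF2 and AhR pathways had a median of 0.16, or -0.20 without SON II and 0.68 without SON I (unadjusted: 2 higher, 2 lower), while the authors' deposited table calls 1 higher, Mafk, a partner of NRF2. Mafk measured 891 ± 0.916 and 1594 ± 116 (log2 0.84, limma adjusted p = 0.230, the authors' deposited DESeq2 adjusted p = 0.0117), and Fth1, the ferritin heavy chain, 28940 ± 7917 and 29020 ± 20080. The 19 tested genes of the glucocorticoid pathway had a median of -0.41, or -0.48 without SON II and -0.11 without SON I (unadjusted: 1 higher, 5 lower), while the authors' deposited table calls Dusp1 higher and Lcn2 lower. Dusp1, a phosphatase of MAP kinases, measured 1131 ± 23.4 and 2150 ± 297, and Lcn2, which binds siderophores, 2854 ± 1760 and 830 ± 420. Their log2 differences were 0.92 and -1.73 (limma adjusted p = 0.230 and 0.332, the authors' deposited DESeq2 adjusted p = 0.00663 and 0.0154). Errfi1, a feedback inhibitor of EGF receptor signalling, measured 4690 ± 1202 and 2939 ± 520.4. The 19 genes of oxidative folding in the endoplasmic reticulum, which the yeast flavin monooxygenase serves, had a median of -0.01, or -0.29 without SON I and 0.14 without SON II (1 higher and 1 lower unadjusted, 0 calls in the authors' deposited table), with P4hb, a disulfide isomerase, at 35520 ± 3341 and 32410 ± 6278. Hsd11b1 stands in 2 of the lists.

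**Figure D5:**
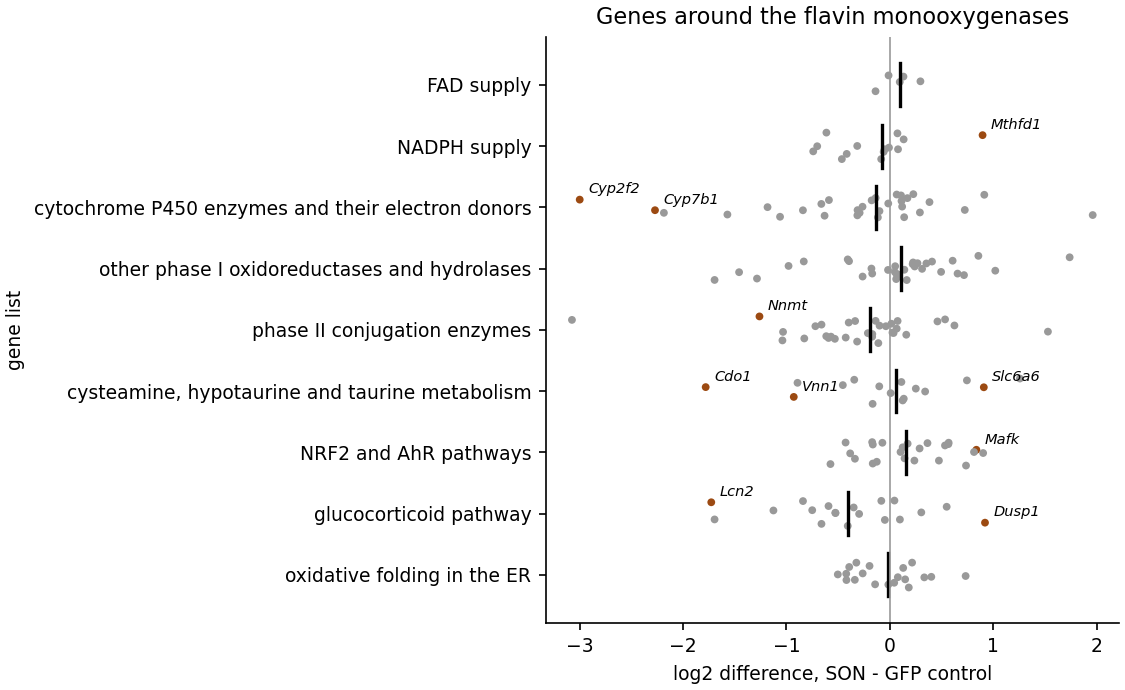
Log2 difference (SON minus GFP control) of each tested gene in 9 lists around the flavin monooxygenases. Points are genes, jittered in height, short black bars are list medians, and genes that the authors' deposited table calls are brown and named. With all 4 libraries the list medians lie between -0.41 and 0.16, and none of the points reaches -4.33, the difference of Fmo2.

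Markers of cell types give the setting in which the members were read. All 15 fibroblast markers were read in every library, and their median log2 difference was -0.89, or -1.31 without GFP II and -0.33 without GFP I. Of the 15, 10 had a negative difference and 5 a positive one: Fn1, Vim, Thy1, S100a4 and Fbln2. The authors' deposited table calls 6 of the 15 lower, and 0 passed limma over all genes (7 lower unadjusted). GFP I exceeded GFP II by a median of 0.82 over these markers, in the same direction as Fmo1 and Fmo2. Of 8 hepatocyte markers, Alb measured 1206 normalized counts in GFP I and 71.9 in GFP II, against 21.8 in SON I and 19.1 in SON II, the same order of libraries as Fmo1. Apob went the other way, at 5.85 and 14.86 in GFP I and II, against 16.36 and 16.16 in SON I and II. Serpina1a had 0 reads, and Ttr, Apoa1, Fgb, Tat and Hnf4a did not pass 2.94 in any library. The summed level of this list was 1214, 91.0, 40.9 and 41.1, of which Alb made up most in the GFP control. Of 8 lung epithelial markers, Scgb1a1 had 0 reads and all but Aqp5 stayed at or below 7.35, with summed levels of 123, 208, 75.0 and 278. Over 11 adipocyte markers the summed level was 16130 and 5128 in the GFP control, against 1448 and 1362 in SON, of which Lpl made up most. Both Lpl and Fabp4 are called lower in the authors' deposited table. Adipoq, a marker that defines adipocytes, was at 26.7, 52.9, 8.18 and 14.7. Of the 7 adipocyte markers tested, 4 had a negative log2 difference and 3 a positive one. The positive ones were Adrb3 at 1.18, Pparg at 0.68 and Cfd at 0.11. Macrophage markers summed to 1025 and 1285 in the GFP control, against 341 and 1077 in SON. Endothelial markers summed to 161 and 236, against 284 and 299.7. Kdr, Tek and Esam had positive log2 differences, and Pecam1, Vwf and Emcn negative ones. Epithelial markers summed to 187 and 382, against 663 and 987. Of these, Dsp measured 18.4 and 89.8 in the GFP control, against 224 and 695 in SON. Krt19 measured 90.2 and 120, against 294.5 and 197. Epcam and Cdh1 did not pass 11.75 in any library, the groups of Krt18 overlapped, and Krt8 was lower in SON. The part of any of these cell types in the levels of the members was not tested.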

How the data were processed

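RNA from BALB/c MEFs was made into libraries with the TruSeq mRNA kit v2, per the labels' protocols, whose reads carry no strand. The genome was GRCm38, per the submitters' processing notes. Those notes list the aligners STAR 2.4.0j and TopHat2 2.0.11, the counters HTSeq 0.5.3p3, Subread and featureCounts, CASAVA 1.8.1 and DESeq2. The steps behind the gene table were otherwise not given in the sources used here. For each gene and library the deposited table gives a signal. The authors obtained it from read counts with a size factor for each library, as 100% of the values came out as whole multiples of a library's step (tolerance 0.01 reads). DESeq2 columns of the authors stand in the deposited table too, per the file headers: log2 fold change and standard error, a Wald score, p-value and adjusted p-value. A deposited table of repeats, with 4 columns of sample values, was not used, because it gives no positions.

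The samples were grouped by their titles into GFP control (I and II) and SON (I and II). The members, the gene lists and the tests were chosen with earlier results of these data known, so nothing here is independent of them. The reads recovered from the steps summed to 28924700 for GFP I, 37097571 for GFP II, 17365551 for SON I and 14680865 for SON II. The count of 0 limit is 3 reads. Because the values are normalized, limma 3.58.1 (R 4.3.3) was fitted with a trend on log2(value + 1), as a two-sided test at a Benjamini-Hochberg adjusted p under 0.05. The filter filterByExpr of edgeR 4.0.16 left 15283 of 39179 genes, and 13132 had no reads. A fold change on the log2(value + 1) scale understates the change of low genes. Limma called 5 genes higher and 3 lower. Count tests on the recovered reads were alternatives: edgeR called 5 higher and 3 lower, and DESeq2 1.42.0 called 236 higher and 381 lower. No p-value is given for the members.

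Also tried were limma voom, a filter of 1 CPM in 2 libraries or none, pseudocounts of 0.1 and 10, RLE factors, the replicate number as a block, each library left out in turn and, added after seeing the data, DESeq2 with each library left out. Read ratios are scaled by the size factors and have exact (Clopper-Pearson) 95% intervals, and shares have Wilson intervals. Both kinds of interval cover counting error only. Positions, exon lengths and overlaps are from GENCODE M21 (GRCm38), where 37693 identifiers matched, and promoter windows from RefSeq (GRCm38.p6), where 3 of the 4 members matched. The scripts were tested on simulated counts.

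The rule for named genes takes all members, every other gene whose symbol starts with Fmo and a digit, the 6 tested genes nearest to Fmo2, in each list up to 3 limma calls or else the member with the highest mean, up to 4 members with the smallest adjusted p under 0.05 in the authors' deposited table, and the nearest tested gene on each side of each locus. Not every gene that this rule takes is reported here. Dnm3 and single marker genes were picked with their values in view.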

Additional observations from a re-analysis of the deposited data

How the results depend on the processing

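Of 46 alternative values for the members, 45 moved by less than the spread between replicates and all kept their sign. The exception was Fmo2 with a pseudocount of 10, at a log2 difference of -4.07. With 2 libraries per group, leaving 1 out cannot move a difference beyond that spread. The replicate block and the other filters leave a member's log2 difference in limma as it was. For these values staying within the spread was thus fixed in advance, and nothing is read from it. With 1 library left out the difference lay between -4.50 and -4.16 for Fmo2, -3.14 and -1.16 for Fmo1, -0.61 and -0.42 for Fmo5, and -0.59 and -0.04 for Fmo4. For Fmo1 the lowest value is without GFP II and the highest without GFP I.

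The number of genes called was 8 with limma, with edgeR (TMM or RLE), with a pseudocount of 10, with no filter and with a filter of 1 CPM, 6 with a pseudocount of 0.1, 4 with limma voom and 617 with DESeq2. Leaving out 1 library gave 0 to 32 calls with limma and 54 to 653 with DESeq2. Limma made 32 calls when GFP II was dropped and 0 when GFP I (unadjusted: 263 higher, 337 lower), SON I (1088, 1343) or SON II (1436, 1306) was. DESeq2 made 54 calls when GFP I was dropped, 446 for GFP II, 413 for SON I and 653 for SON II. The cause was not tested. Of 117 alternative medians of the pathway lists, 10 moved by more than the spread between replicates, and 0 lists gained a limma call.

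With the replicate number as a block limma called 11 genes (4 higher, 7 lower), among them 7 of the 8, and the members' log2 differences were the same. The pairing by number was not taken up: across 15283 genes the gap between the GFP libraries and the gap between the SON libraries (I minus II in each) correlated at 0.218, and there are only 2 pairs. Depth limits Fmo4 most, with 4 and 5 reads in SON. The median over all tested genes was -0.01 to 0.02 under the scalings compared.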

Other observations

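Of the pathway lists, 7 further genes had a log2 difference of at least 1.5 in size and no call by limma over all genes or in the authors' deposited table. They were picked for the size of those differences. Sult5a1, a sulfotransferase, measured 16.5 ± 7.37 normalized counts in the GFP control and 1.47 ± 2.08 in SON (SD, n = 2 each), with a limma adjusted p = 0.286 and none given in the authors' deposited table. Cyp4b1, a cytochrome P450 known from the lung like Fmo2, measured 44.2 ± 33.1 and 8.66 ± 6.46 (log2 -2.19, limma adjusted p = 0.374). Cyp11a1, which makes pregnenolone from cholesterol, measured 103 ± 58.9 and 31.3 ± 5.65 (log2 -1.57, limma adjusted p = 0.330). Hsd11b1, which activates glucocorticoids, measured 80.4 ± 48.1 and 22.03 ± 4.16 (log2 -1.70, limma adjusted p = 0.329). In the other direction, Cyp1a1, a target of AhR, measured 9.93 ± 12.9 and 75.5 ± 103 (log2 1.96, limma adjusted p = 0.746). Ces2g, a carboxylesterase, measured 107 ± 68.4 and 412 ± 367 (log2 1.74, limma adjusted p = 0.468). Sult4a1, a sulfotransferase of the brain, measured 305 ± 214 and 805 ± 349 (log2 1.53, limma adjusted p = 0.393).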
